A study of Homo sapiens with 12 samples.

Results

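Glutamate receptors and the scaffold proteins that hold them at excitatory synapses were followed in human neurons after knockdown of SMN, the protein whose loss causes spinal muscular atrophy. All genes with a symbol of the AMPA (GRIA), NMDA (GRIN), kainate (GRIK), delta (GRID) or metabotropic (GRM) receptor families were members. So were all genes with a symbol of the TARP group (CACNG2 to CACNG8), the cornichon (CNIH2, CNIH3) or NETO auxiliary subunits, or the DLG, DLGAP, SHANK or HOMER scaffolds. CACNG6 was placed in the TARP group by its symbol only. The rule used names and no measured value. It took 52 symbols, of which 50 were among the 16406 genes tested in motor neurons and 52 were among the 19016 genes tested in NGN2 neurons.

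The motor neurons (iMNs) came from human iPSCs that carried an HB9–Td-Tomato reporter and were sorted for Td-Tomato, and the NGN2 neurons (i3Ns) came from H1 embryonic stem cells with doxycycline-inducible NGN2, which the labels call cortical neurons. Each was transduced with lentivirus that carried either a scrambled shRNA (SCR) or an shRNA against both SMN1 and SMN2 (SMN-KD), and RNA was harvested after 12 days of knockdown. There were 3 SCR and 3 SMN-KD libraries of ribosome-depleted total RNA in each cell type, 12 in all. Since 1 stem cell line stood behind each neuron type, the type of neuron cannot be told apart from its line and its protocol. The labels do not say whether replicates were separate cultures, so the p-values measure the spread between libraries, which may be technical.

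Glutamate opens AMPA, NMDA and kainate receptors, which are ion channels built from several subunits, and activates metabotropic receptors, which signal through G proteins. Auxiliary subunits such as TARPs, cornichons and NETO proteins travel with the channels and set their gating and their delivery to the synapse. Beneath the membrane, PSD-95 (DLG4) and its relatives bind receptor tails, DLGAP proteins bind the DLG proteins, SHANK proteins bind DLGAP, and HOMER proteins tie SHANK to metabotropic receptors. Motor neurons of the spinal cord receive much of their excitatory drive through these receptors.

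The tables used here gave, for each gene, 1 mean normalized count over the 6 libraries of a cell type, with a log2 fold change (SMN-KD against SCR), its standard error (SE) and an adjusted p from DESeq2. The mean of each group was derived from these values, so the SCR and SMN-KD levels below are group means without a spread of their own, and overlap between single libraries could not be read. A gene was called down or up at an adjusted p under 0.01 with a log2 fold change beyond 1 in size, which is a fold change of 2. The verbs fell and rose are used for any gene past the adjusted p. All adjusted p-values of changes within a cell type are from DESeq2 over all genes of that cell type.

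The targeted transcripts fell in both cell types. Summed over the SMN1 and SMN2 identifiers, the derived mean went from 1923 in SCR to 424 in SMN-KD iMNs and from 1839 to 318 in i3Ns. Among 7 general neuronal markers, 5 fell and 1 rose in iMNs, the median log2 change being -0.16, and 5 fell in i3Ns, where the median was -0.23. Of 6 motor neuron markers, 4 fell and 1 rose in iMNs and 5 fell in i3Ns. CHAT, the acetylcholine-synthesizing enzyme, was called down in both, from 725 to 340 in iMNs and from 937 to 117 in i3Ns, and the choline transporter SLC5A7 fell by 0.79 and by 1.85 on the log2 scale. The labels set the iMNs apart as motor neurons, yet 3 motor neuron transcription factors had higher mean counts in the i3N table. MNX1, the HB9 gene whose reporter the iMNs were sorted by, was at 430 in iMNs and 2279 in i3Ns, ISL1 at 1663 and 14299, and LHX3 at 15.1 and 230. The cholinergic genes SLC18A3 and SLC5A7 were at 3115 and 8460 in iMNs and at 1865 and 2472 in i3Ns. The vesicular glutamate transporters SLC17A6 and SLC17A7 were at 11237 and 6490 in i3Ns, where they fell by 0.73 and by 0.70 on the log2 scale, and at 593 and 50.1 in iMNs. A further such transporter, SLC17A8, was called down in iMNs, from 1698 to 448. The part of these marker changes in the results below was not tested. In i3Ns, 4 of 5 mesenchymal markers and 3 of 4 proliferation markers were called down, with COL1A1 going from 7795 to 660 and MKI67 from 938 to 106, and their part in the results below was not tested. In iMNs, 3 of 4 mesenchymal markers rose, with COL1A1 going from 908 to 1735. The astrocyte markers GFAP and AQP4 were in neither table, and SOX9 was called down in i3Ns, from 185 to 86.3. In bulk RNA, fewer cells of a type and less RNA per cell cannot be told apart.

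In iMNs, 4 of the 50 members were called down (among them GRIN2D, GRIK1 and CACNG3) and 2 were called up (GRIK3 and DLGAP2), where 2.37% of all genes were called down and 0.969% up. Past the adjusted p alone, 23 members fell and 6 rose, beside 18.7% and 17.1% of all genes. In i3Ns, 9 of the 52 members were called down (GRIN2A, GRIN2D, GRIN3B, GRIK1, GRIK4, CACNG5, CACNG8, NETO1 and DLG4) and 1 was called up (DLG2), where the shares over all genes were 9.53% and 4.23%. Past the adjusted p alone, 27 members fell and 7 rose, beside 25.7% and 22.8% of all genes. At the median, members changed by -0.20 on the log2 scale in iMNs and by -0.33 in i3Ns, while the median gene changed by 0.00 and 0.01. The members were also counted more deeply than the average gene, with a median mean count of 1559 beside 875 in iMNs and 1231 beside 577 in i3Ns, which bears on how many pass an adjusted p. GRM6 and CACNG6 were tested only in i3Ns, at mean counts of 4.90 and 5.18.

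**Figure D1:**
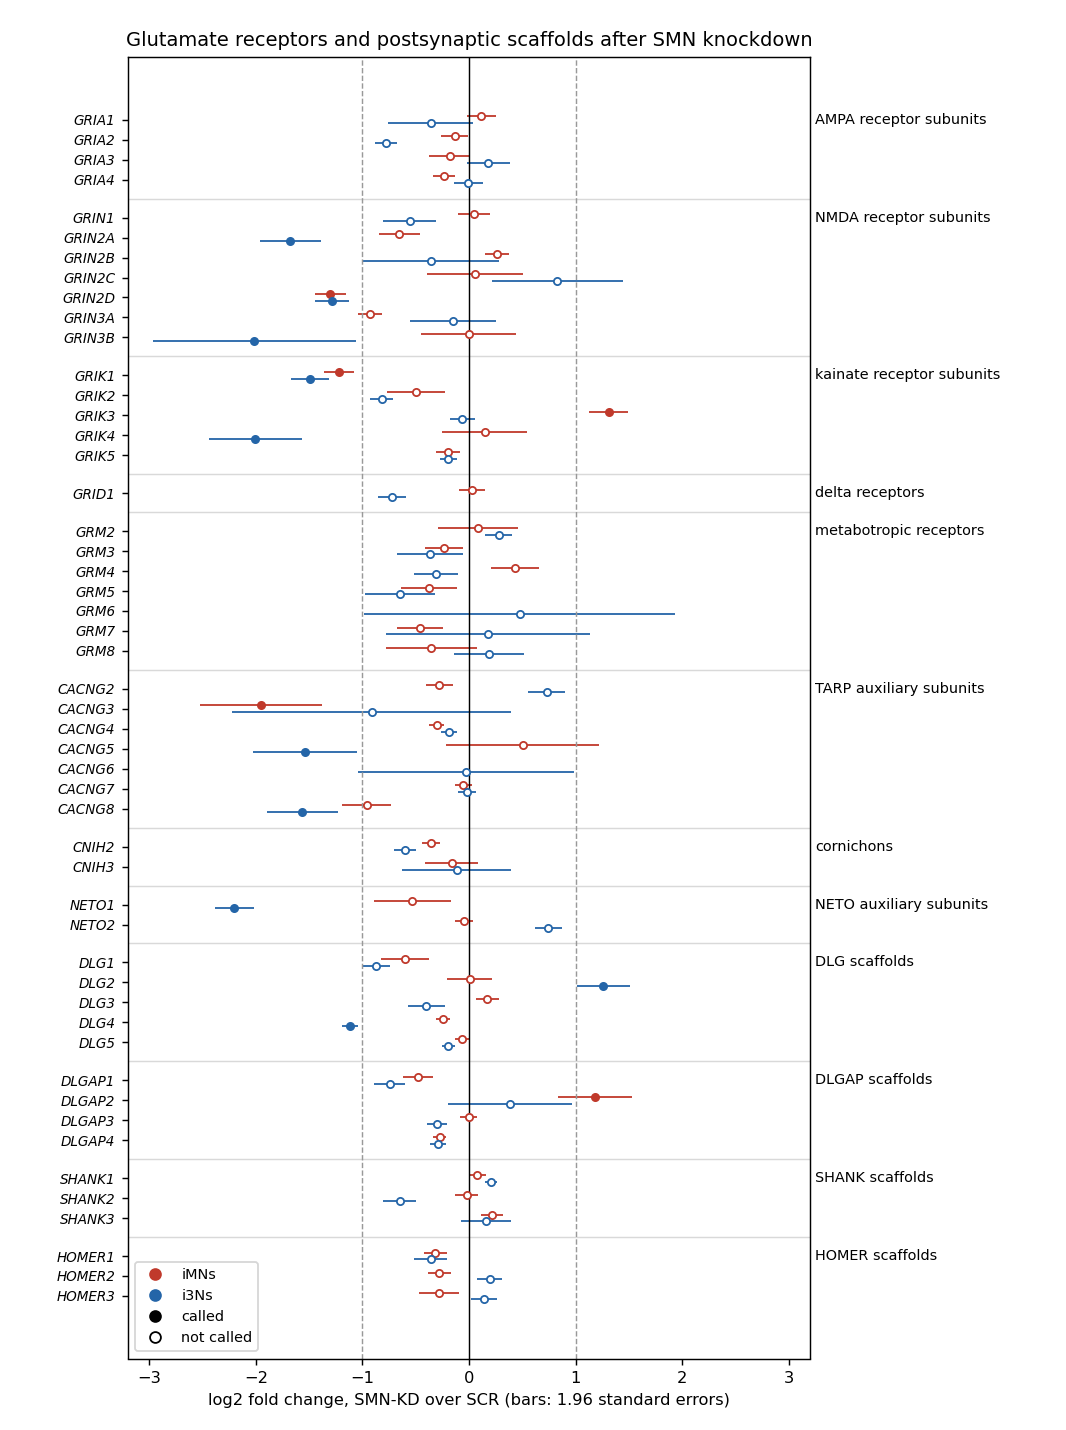
Log2 fold change, SMN-KD against SCR (x axis) for members reported by name here (y axis, grouped by family), with iMNs in red and i3Ns in blue. Bars are 95% intervals from the standard errors, filled points are called genes and dashed lines mark a log2 fold change of 1 in size. Most filled points lie on the left, and only GRIN2D and GRIK1 have filled points on the left for both cell types.

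The shRNA itself sets a sequence feature that the transcripts may share. The guide strand of the SMN shRNA pairs through its seed, bases 2 to 8 from its 5′ end, with the motif CTAATAA in a transcript, and bases 3 to 9 pair with GCTAATA. Gene coordinates are those of GENCODE 44 on GRCh38, which the authors' tables do not give. The motifs were looked for on the transcript strand of the 3′-UTR of each MANE Select transcript, and overlapping matches of both were joined. A match was found in 14 members, while 20.0% of all genes with a mean count of at least 100 held one. Matches in CACNG5, CACNG8, GRIK4, GRIN2A, DLG1 and NETO2 are shown because the fold changes below are read beside them. Capitals mark the match, each lies in the last exon, and the sequence is of the transcript strand.
CACNG5, chr17:66888072-66888078, plus strand: gaggggtagaCTAATAAacccaagtgt
CACNG8, chr19:53990194-53990200, plus strand: ggtgccccgtCTAATAAactcgatgaa
GRIK4, chr11:120988636-120988642, plus strand: tttgcaaccaGCTAATActcttccttg
GRIN2A, site 1 of 3, chr16:9757624-9757630, minus strand: acattgaccaGCTAATAggacttcact
GRIN2A, site 2, chr16:9753695-9753701, minus strand: tgaggaagtgCTAATAAgtgtattaaa
GRIN2A, site 3, chr16:9753439-9753445, minus strand: tttcatttttCTAATAAagataatttc
DLG1, chr3:197042945-197042951, minus strand: aggagaacagCTAATAAactgtattgt
NETO2, site 2 of 2, chr16:47078569-47078575, minus strand: tatacctctgCTAATAAttcaaaactc
In DLG1, NETO2 and site 2 of GRIN2A, the base before the capitals extends the match to bases 2 to 9. Members with a match that are not printed include GRIA2, GRIN2B, GRM4, GRM5, GRM8 and HOMER1.

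AMPA receptors carry most fast excitatory transmission, and the GRIA2 subunit makes them impermeable to calcium. In i3Ns GRIA2 (chr4:157204182-157387146) fell from a derived mean of 6408 to 3731, a log2 fold change of -0.78 (SE 0.053, adjusted p = 9.43e-49), while in iMNs it was at 5189 and 4722 (-0.14, SE 0.065, adjusted p = 0.0700). The i3N change was lower than the iMN change by 0.64 on the log2 scale (SE 0.084). GRIA2 matched the SMN guide at bases 3 to 9 and not at bases 2 to 8. GRIA4 fell in iMNs from 7639 to 6484 (log2 fold change -0.24), and stood at 1451 and 1445 in i3Ns. GRIA1 and GRIA3 did not pass the adjusted p in either cell type, with log2 fold changes between -0.36 and 0.18. Per kb of transcript, GRIA2 made up 65.9% of the summed AMPA subunit level in SCR i3Ns and 52.0% in SMN-KD i3Ns, whereas in iMNs its share was 31.2% and 31.5% and GRIA4 held the largest share.

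NMDA receptors need the obligatory GRIN1 subunit, and the GRIN2 subunit they contain sets how long the channel stays open. GRIN2D, a subunit of slowly closing receptors that is known from early development, was called down in both cell types. In iMNs GRIN2D (chr19:48393668-48444931) fell from 2145 to 871 (log2 fold change -1.30, SE 0.072, adjusted p = 2.90e-71), and in i3Ns from 2813 to 1153 (-1.29, SE 0.080, adjusted p = 6.07e-58). These changes differed by 0.01 on the log2 scale (SE 0.11). GRIN2D held no match to the SMN guide in its 3′-UTR.

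GRIN2A, the subunit that becomes prominent in mature synapses, fell in both cell types and by more in i3Ns. In i3Ns GRIN2A (chr16:9753404-10182928) went from 763 to 238 (log2 fold change -1.68, SE 0.15, adjusted p = 1.49e-30), and in iMNs from 3085 to 1958 (-0.66, SE 0.098, adjusted p = 2.58e-11). The difference between the cell types was -1.02 (SE 0.18, adjusted p = 4.65e-08). GRIN2A carried 3 matches to the SMN guide.

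GRIN2B, the other main subunit of forebrain receptors, was the most abundant member in iMNs by count, at a mean of 35504, and rose there from 32300 to 38708 (log2 fold change 0.26, SE 0.057, adjusted p = 1.40e-05). Its 3′-UTR of 25446 bases held 2 matches. In i3Ns its mean was 53.9 and its log2 fold change was -0.36 (SE 0.33, adjusted p = 0.276). Of the summed GRIN2 level per kb, GRIN2B made up 63.4% in SCR and 80.8% in SMN-KD iMNs, and GRIN2D made up 23.4% and 10.1%. In i3Ns GRIN2D alone made up 88.8% in SCR and 85.1% in SMN-KD neurons.

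The obligatory subunit GRIN1 fell in i3Ns, from 853 to 580 (log2 fold change -0.56, adjusted p = 1.83e-05), and stood at 3541 and 3657 in iMNs (0.05, adjusted p = 0.657), and the changes differed by -0.60 (SE 0.15, adjusted p = 0.000188). GRIN3A, which lowers calcium flow through the receptor, was among the members with the larger fall in iMNs. It went from 4225 to 2223 in iMNs (log2 fold change -0.93, SE 0.057, adjusted p = 2.29e-58), just short of the 2-fold line, and stood at 277 and 250 in i3Ns (-0.15, SE 0.21), a difference of 0.78 (SE 0.22, adjusted p = 0.00116). Its relative GRIN3B (chr19:1000419-1009732) was called down in i3Ns from 47.8 to 11.9 (-2.01, SE 0.49, adjusted p = 9.12e-06), at the low mean count of 29.8. A Wald test recomputed from its fold change over the doubled standard error gave an adjusted p of 0.105. GRIN2C, at a mean of 63.3 in i3Ns, rose there from 45.6 to 81.0 (0.83, SE 0.32, adjusted p = 0.00602).

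Kainate receptors act on both sides of the synapse, with GRIK1 to GRIK3 as subunits that can form channels alone and GRIK4 and GRIK5 as high-affinity partners. GRIK1 (chr21:29536933-29940033) was called down in both cell types. It fell from 4326 to 1862 in iMNs (log2 fold change -1.22, SE 0.072, adjusted p = 1.45e-63) and from 1606 to 570 in i3Ns (-1.50, SE 0.091, adjusted p = 5.79e-60). The difference of -0.28 (SE 0.12, adjusted p = 0.0392) did not pass 0.01, and its 3′-UTR of 297 bases held no match.

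GRIK3 and GRIK4 moved in 1 cell type each. GRIK3 (chr1:36795527-37034515) rose from 515 to 1279 in iMNs (log2 fold change 1.31, SE 0.094, adjusted p = 7.38e-44) and stood at 2787 and 2667 in i3Ns (-0.06, SE 0.060), a difference of -1.37 (SE 0.11, adjusted p = 2.19e-33). GRIK4 (chr11:120511746-120988906) fell from 334 to 83.3 in i3Ns (-2.00, SE 0.22, adjusted p = 7.56e-20) and stood at 132 and 146 in iMNs (0.15, SE 0.21), a difference of -2.15 (SE 0.30, adjusted p = 1.30e-11). GRIK4 held 1 match. GRIK2 and GRIK5 fell in both, GRIK2 from 417 to 295 in iMNs and from 2890 to 1639 in i3Ns. As shares of the kainate level per kb, GRIK1 went from 62.7% to 42.4% in iMNs and GRIK3 from 2.87% to 11.2%, while in i3Ns the most abundant subunit was GRIK5, at 46.6% in SCR and 57.3% in SMN-KD.

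**Figure D2:**
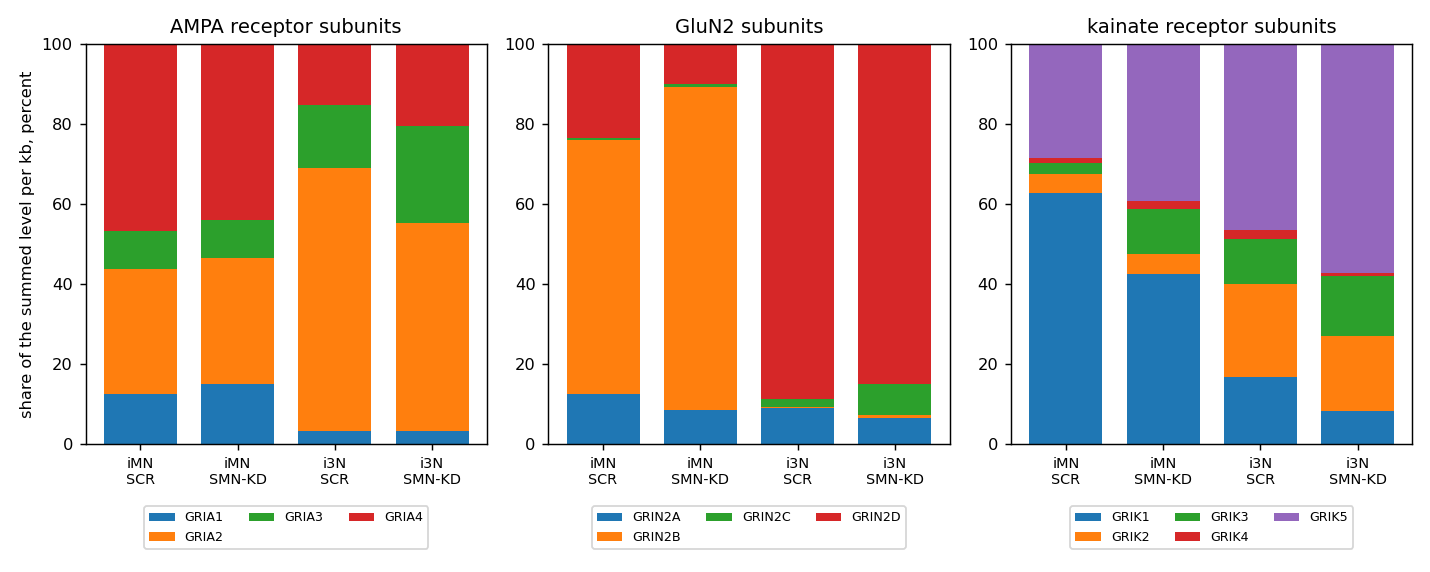
Stacked bars of the share of each subunit (y axis, percent of the summed level per kb) in SCR and SMN-KD neurons of both types (x axis), for AMPA, GRIN2 and kainate subunits. GRIN2B fills 63.4% and 80.8% of the GRIN2 bars in iMNs, and GRIN2D fills 88.8% and 85.1% in i3Ns. Shares come from derived group means and carry no error.

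The delta receptor GRID1 resembles the other channels in sequence but acts mainly as a synaptic adhesion protein. GRID1 fell from 2377 to 1443 in i3Ns (log2 fold change -0.72, SE 0.067), with 1572 and 1606 in iMNs (0.03, SE 0.062), and the difference was -0.75 (SE 0.091, adjusted p = 2.63e-15).

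None of the metabotropic receptors reached a 2-fold change. Of 7 tested in iMNs 2 fell (GRM5 and GRM7) and 1 rose (GRM4), and of 8 tested in i3Ns 2 fell (GRM4 and GRM5) and 1 rose (GRM2). GRM4, a presynaptic receptor that lowers transmitter release, moved in opposite directions. It rose from 442 to 597 in iMNs (log2 fold change 0.43, SE 0.11) and fell from 1007 to 814 in i3Ns (-0.31, SE 0.10), a difference of -0.74 (SE 0.16, adjusted p = 1.07e-05). GRM5, which couples to calcium release and binds HOMER, fell from 406 to 313 in iMNs (-0.37) and from 293 to 187 in i3Ns (-0.65). GRM8 held a match and did not pass the adjusted p in either, at -0.35 (iMNs) and 0.19 (i3Ns) on the log2 scale.

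TARPs bind AMPA receptors, slow their closing and anchor them to PSD-95. By the mean over SCR and SMN-KD, CACNG4 was the most abundant TARP per kb in both cell types. It fell from 13933 to 11293 in iMNs (log2 fold change -0.30) and from 8901 to 7796 in i3Ns (-0.19). In SMN-KD i3Ns alone, CACNG7 held 48.2% of the TARP level per kb and CACNG4 46.2%. CACNG8, a TARP known from hippocampal receptors, fell in both. It went from 940 to 484 in iMNs (-0.96, SE 0.12, adjusted p = 3.26e-16), just inside the 2-fold line, and from 669 to 226 in i3Ns (-1.57, SE 0.17, adjusted p = 3.47e-20). The difference of -0.61 (SE 0.21) had an adjusted p of 0.00995, at the edge of the threshold.

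CACNG3 (chr16:24256335-24362412) had the largest fall of the members in iMNs, from 122 to 31.5 (log2 fold change -1.95, SE 0.29, adjusted p = 1.64e-11), at a mean count of 76.6. In i3Ns its mean was 20.9 and its log2 fold change was -0.91 (SE 0.67, adjusted p = 0.0547). CACNG5 (chr17:66835117-66894751) was called down in i3Ns, from 169 to 58.3 (-1.54, SE 0.25, adjusted p = 3.41e-10), and was at 38.2 and 54.2 in iMNs (0.50, SE 0.37, adjusted p = 0.0489). CACNG2, stargazin, the first TARP described, fell from 1675 to 1381 in iMNs (-0.28, SE 0.065) and rose from 775 to 1283 in i3Ns (0.73, SE 0.086), a difference of 1.01 (SE 0.11, adjusted p = 3.69e-19). Of the exonic bases of CACNG2, 36.3% lie under another annotated gene of the same strand, so reads there may be shared. CACNG7 did not pass the adjusted p in either, at 5762 and 5552 in iMNs and at 6349 and 6254 in i3Ns.

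Cornichons aid the export of AMPA receptors from the endoplasmic reticulum. CNIH2 fell from 6087 to 4745 in iMNs (log2 fold change -0.36, SE 0.043) and from 2766 to 1819 in i3Ns (-0.60, SE 0.053), and the i3N change was lower by 0.25 (SE 0.068, adjusted p = 0.00113). CNIH3 did not pass the adjusted p in either.

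NETO1 and NETO2 are auxiliary subunits of kainate receptors, and they moved apart in i3Ns. NETO1 (chr18:72742314-72868146) fell there from 2123 to 461 (log2 fold change -2.20, SE 0.093, adjusted p = 3.82e-124), the largest fall of any member, while NETO2 (chr16:47077703-47143945) rose from 3291 to 5506 (0.74, SE 0.065, adjusted p = 1.88e-29). In iMNs NETO1 fell from 244 to 169 (-0.53, SE 0.18, adjusted p = 0.00230) and NETO2 stood at 5533 and 5356 (-0.05, SE 0.042). Both changes differed between cell types, by -1.67 (SE 0.21) for NETO1 and by 0.79 (SE 0.077) for NETO2. NETO2 held 2 matches to the SMN guide and NETO1 held none. Another annotated gene of the same strand covers 32.8% of the exonic bases of NETO1.

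**Figure D3:**
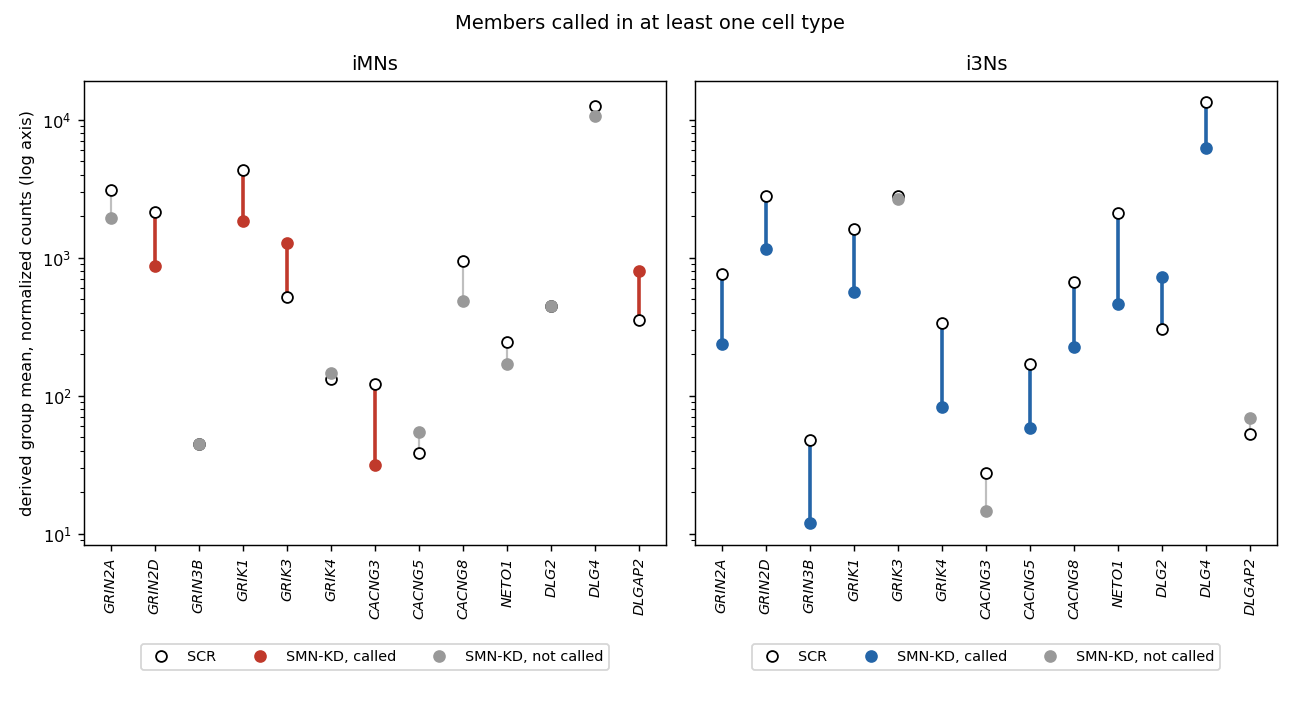
Derived group means in normalized counts (y axis, log axis) of members called in at least 1 cell type (x axis), with SCR as open circles and SMN-KD as filled circles for iMNs (left) and i3Ns (right). Coloured lines join called pairs and grey lines join pairs that were not called. GRIN2D and GRIK1 drop in both panels, and NETO1 drops from 2123 to 461 in i3Ns.

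Among the DLG scaffolds, DLG4 encodes PSD-95, the main organizer of the postsynaptic density. By the mean over SCR and SMN-KD it was the most abundant of its family per kb in both cell types. In i3Ns DLG4 (chr17:7187187-7219841) fell from 13450 to 6206 (log2 fold change -1.12, SE 0.038, adjusted p = 3.07e-184), and in iMNs from 12683 to 10708 (-0.24, SE 0.032, adjusted p = 1.98e-13). The difference was -0.87 (SE 0.050, adjusted p = 9.21e-66), and DLG4 held no match. DLG2, which encodes the related PSD-93, was the only member called up in i3Ns. DLG2 (chr11:83455012-85628335) rose from 303 to 724 (1.26, SE 0.13, adjusted p = 6.90e-23) and stood at 444 and 446 in iMNs (0.01, SE 0.11), a difference of 1.25 (SE 0.17). Even so, DLG2 made up 3.08% of the DLG level per kb in SMN-KD i3Ns, beside 34.0% for DLG4 and 41.4% for DLG5. In SCR i3Ns DLG4 made up 47.7% and DLG5 30.7%.

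DLG1, or SAP97, fell in both cell types, from 946 to 623 in iMNs (log2 fold change -0.60, SE 0.11) and from 1778 to 969 in i3Ns (-0.88, SE 0.067). DLG3, or SAP102, rose from 3183 to 3585 in iMNs (0.17, SE 0.057, adjusted p = 0.00574) and fell from 3495 to 2649 in i3Ns (-0.40, SE 0.090, adjusted p = 1.89e-05), a difference of -0.57 (SE 0.11).

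The DLGAP proteins link PSD-95 to SHANK. DLGAP1 fell from 3343 to 2399 in iMNs (log2 fold change -0.48) and from 2286 to 1366 in i3Ns (-0.74), and DLGAP4, the most abundant, fell by 0.28 and by 0.29 on the log2 scale. DLGAP3 stood at 4770 and 4767 in iMNs and fell from 3436 to 2786 in i3Ns. DLGAP2 on its main identifier (chr8:737628-1708476) was called up in iMNs, from 352 to 799 (1.18, SE 0.18, adjusted p = 1.27e-11). The table held 4 identifiers for DLGAP2, and summed over them the change was from 1154 to 2031, a log2 ratio of 0.82 that lies inside the 2-fold line. In i3Ns the main identifier was at a mean of 61.2 and did not pass (0.39, SE 0.30).

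SHANK scaffolds form the deep layer of the postsynaptic density. SHANK1, the most abundant per kb of those with a transcript length here, rose slightly in i3Ns from 10782 to 12460 (log2 fold change 0.21, SE 0.029), and stood at 13382 and 14129 in iMNs (0.08, SE 0.040, adjusted p = 0.101). SHANK2 fell in i3Ns from 2565 to 1632 (-0.65, SE 0.077) and stood at 4508 and 4439 in iMNs, a difference of -0.63 (SE 0.094). SHANK3 appeared under 2 identifiers. On the main one it rose in iMNs from 2840 to 3294 (0.21, SE 0.053) and was at 1105 and 1236 in i3Ns (0.16, SE 0.12, adjusted p = 0.248), while the other identifier, with more counts, rose in both, from 5440 to 6242 in iMNs (0.20, SE 0.036, adjusted p = 1.99e-07) and from 2238 to 3147 in i3Ns (0.49, SE 0.058, adjusted p = 5.34e-17).

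HOMER proteins cross-link SHANK with metabotropic receptors. All 3 fell in iMNs, with log2 fold changes between -0.31 and -0.28. In i3Ns HOMER1 fell (-0.36, SE 0.080), HOMER2 rose from 2088 to 2385 (0.19, SE 0.060, adjusted p = 0.00269), and HOMER3 was at 1547 and 1703 (0.14, SE 0.062, adjusted p = 0.0471). HOMER2 thus had opposite signs in the cell types, with a difference of 0.47 (SE 0.081, adjusted p = 4.42e-08).

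Whether the knockdown changed the members alike in both neuron types was tested gene by gene, as the difference of the log2 fold changes over its SE (two-sided Wald test, adjusted over 16093 genes). Of the 50 members in both tables, 22 differed at an adjusted p under 0.01, which is 44%, beside 34% of all genes. The i3N change was the lower in 16 and the higher in 6. By more than 1 on the log2 scale, 8 members differed, or 16% beside 8.89% of all genes. These were GRIN2A, GRIN3B, GRIK3, GRIK4, CACNG2, CACNG5, NETO1 and DLG2. Both cell types showed a fall past the adjusted p for 16 members, and opposite signs past it for 4 (GRM4, CACNG2, DLG3 and HOMER2). With standard errors doubled, none of these 4 passed 0.01 in both cell types, and only CACNG2 passed it in 1, the i3Ns. On main identifiers, DESeq2 gave 0 members a rise past the adjusted p in both, and 1 at an unadjusted p under 0.05 in both, while the other identifier of SHANK3 rose in both. In 7 members neither change passed. These joint counts, and the split into 16 and 6, were not made over all genes. They are therefore not read as particular to the members.

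Levels were compared between genes as the share of the summed mean counts of a table, in parts per 1e6 and per kb of MANE Select transcript, with no test because the tables were normalized separately. The highest member in iMNs was CNIH2, at 91.0, followed by CACNG4 at 81.3, and in i3Ns the highest were CACNG4 at 51.7, CACNG7 at 50.8 and DLGAP4 at 40.1. The median over members was 6.25 in iMNs and 4.30 in i3Ns, and over all genes it was 7.56 and 6.36. Members of each role lay near each other in the tables or far apart. DLG4 was at 43.7 in iMNs and 35.3 in i3Ns, SHANK1 at 33.0 and 26.8, GRIA2 at 20.4 and 20.1, GRIA3 at 6.13 and 6.44 and CACNG7 at 47.4 and 50.8. CNIH2 was at 91.0 and 37.0, SHANK2 at 9.53 and 4.30, HOMER3 at 10.1 and 23.1 and DLGAP2 at 1.28 and 0.130. GRIN2B was at 26.8 in iMNs and 0.0391 in i3Ns, GRM7 at 5.09 and 0.0849, GRIN3A at 9.49 and 0.747, and GRIA1 at 8.93 and 1.09. In the other direction, GRM2, a presynaptic receptor, was at 1.27 in iMNs and 10.9 in i3Ns, GRIK2 at 1.74 and 10.6, and NETO1 at 0.710 and 4.27. The highest member of each family was GRIA4, GRIN2B, GRIK1, GRID1, GRM7, CACNG4, CNIH2, NETO2, DLG4, DLGAP4, SHANK1 and HOMER2 in iMNs. In i3Ns GRIA2, GRIN2D, GRIK5 and GRM2 took the place of the first 3 and of GRM7. These ranks are of the mean over SCR and SMN-KD. In SMN-KD i3Ns alone, DLG5 stood above DLG4 and CACNG7 above CACNG4. In SMN-KD iMNs alone, GRM3 stood above GRM7, at 30.4% and 29.6% of the metabotropic level per kb. With the longest annotated transcript as the length, HOMER1 in iMNs and HOMER3 in i3Ns stood above HOMER2.

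**Figure D4:**
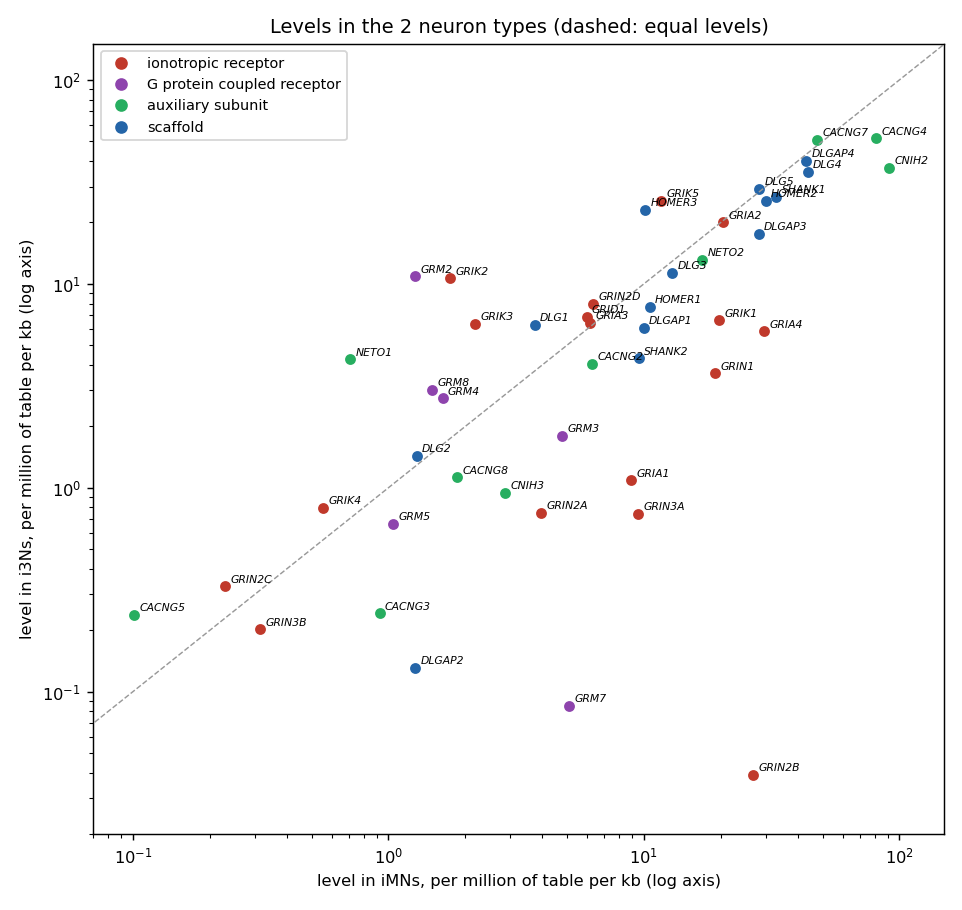
Level of members reported by name here, in iMNs (x axis) and i3Ns (y axis), in parts per 1e6 of the table's summed counts and per kb of transcript, both on log axes, coloured by role. The dashed line marks equal levels, and GRIN2B lies farthest from it, at 26.8 in iMNs and 0.0391 in i3Ns. SHANK3 has no transcript length here, and GRM6 and CACNG6 were not tested in iMNs.

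The members were then split by the guide match. No filter on the mean count was set for the members, unlike for the genes they are set beside. The 14 members with a match changed, at the median, by -0.26 on the log2 scale in iMNs and by -0.70 in i3Ns, and the medians of the 35 and 37 members without one were -0.20 and -0.19. Over all genes with a mean count of at least 100, the medians were -0.17 with a match and 0.04 without in iMNs, and -0.21 and 0.05 in i3Ns. In i3Ns 10 of the 14 matched members fell and 1 rose, beside 17 and 6 of the 37 unmatched members. Over all genes with that mean count, 1199 of 2377 matched and 2823 of 9526 unmatched genes fell. In that cell type 4 of the 9 members called down held a match (GRIN2A, GRIK4, CACNG5 and CACNG8). Of all genes with that mean count called down there, 411 held a match and 705 did not. In iMNs 6 of the 14 matched members fell and 2 rose, beside 17 and 3 of the 35 unmatched members. Over all genes with that mean count, 1107 of 2372 matched and 1726 of 9482 unmatched genes fell. GRIN2D and GRIK1, called down in both cell types, held none, nor did CACNG3, GRIN3B, NETO1 and DLG4. A match to the guide of the scrambled shRNA (CTAGTAA or ACTAGTA) was found in 6 members (CACNG2, CACNG5, CACNG8, DLG1, GRIA1 and GRIN2A), and 12.2% of all genes with a mean count of at least 100 held one in each table. Of the 6, 4 held a match to both guides (CACNG5, CACNG8, DLG1 and GRIN2A). Members with a scrambled match had medians of -0.44 in iMNs and -1.21 in i3Ns, and those without had -0.20 and -0.30. Over all genes with that mean count, the medians were 0.08 with and -0.001 without in iMNs, and 0.19 and -0.01 in i3Ns. Whether any match took part in a change was not tested.

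**Figure D5:**
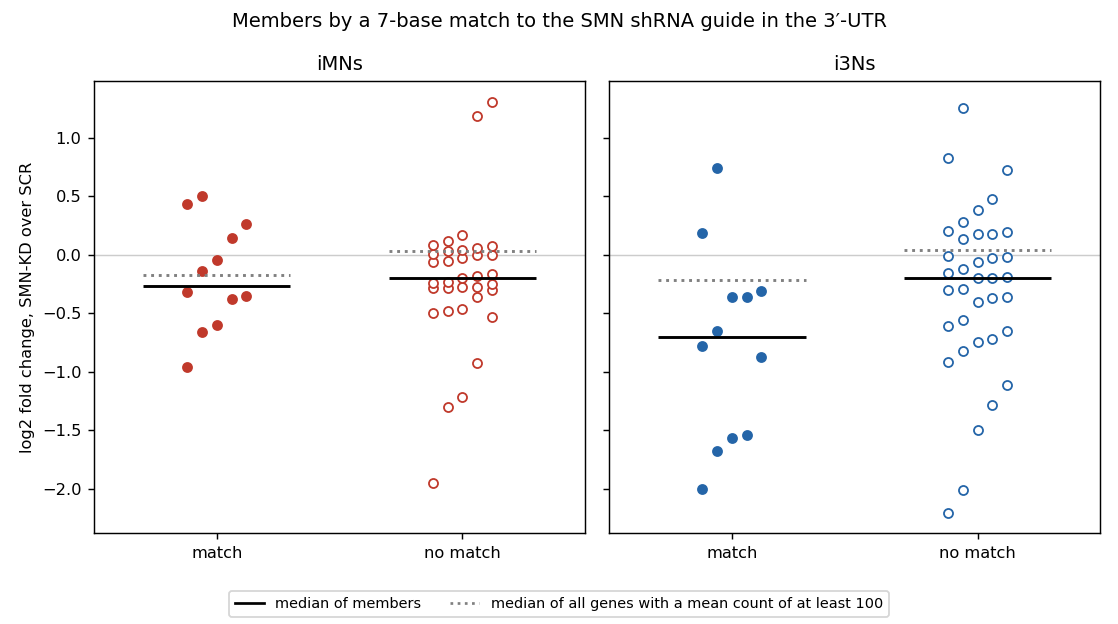
Log2 fold change, SMN-KD against SCR (y axis) of members with and without a 7-base match to the SMN shRNA guide in the 3′-UTR (x axis), in iMNs (left) and i3Ns (right). Points are members reported by name here, solid lines are medians over all members and dotted lines are medians of all genes with a mean count of at least 100. In i3Ns the member medians are -0.70 with and -0.19 without a match.

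Other genes of excitatory synapses were counted from a list of 34 receptor partners, kinases, phosphatases and adhesion proteins, of which 33 were tested on a main identifier in both tables. In iMNs, DESeq2 called 0 of the 33 down, and 0 also had a log2 fold change under -1 at any p, since the lowest was -0.99 (PPP3CB, a catalytic subunit of calcineurin). Over all genes the shares called were 2.37% down and 0.969% up in iMNs and 9.53% and 4.23% in i3Ns, so 0 of 33 lies near the share of all genes. In iMNs 2 were called up, CAMK2A (a subunit of the kinase that strengthens synapses, 330 to 682, log2 fold change 1.05) and GSG1L (an AMPA receptor auxiliary subunit, 150 to 440, 1.55). Past the adjusted p alone, 9 fell and 12 rose there. In i3Ns 5 were called down. Among them were the AMPA receptor partners SHISA6 (344 to 123, log2 fold change -1.49) and SHISA7 (2333 to 870, -1.42), the kinase anchor AKAP5 (190 to 88.5, -1.11) and ADAM22 (5879 to 2517, -1.22), the receptor of LGI1. SHISA6, AKAP5 and ADAM22 each held a match to the SMN guide. LGI1 itself, a secreted protein that bridges ADAM22 across the synapse, was called up in i3Ns, from 598 to 1889 (1.66, SE 0.093, adjusted p = 2.69e-70). Past the adjusted p alone, 11 of the 33 fell and 11 rose in i3Ns. Over all genes, 18.7% fell and 17.1% rose in iMNs, and 25.7% fell and 22.8% rose in i3Ns. The median log2 change of the 33 was 0.06 in iMNs and 0.08 in i3Ns, beside -0.20 and -0.33 for the members. The 34th gene, NSF, whose ATPase binds the GRIA2 tail, was in the tables only under 2 identifiers outside the main annotation, and both rose in both cell types, with log2 fold changes of 1.45 and 1.48 in iMNs and of 1.35 and 1.29 in i3Ns. It is outside the counts above.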

How the data were processed

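RNA was sequenced from 12 libraries in 4 groups of 3. Per the labels and the study's methods, the authors trimmed reads with fastp, quantified transcripts with Salmon and tested genes with DESeq2 (STAR served splicing), on hg38; versions, and whether counting used strand, are not given in the sources used here. The deposited tables hold a mean normalized count per gene (a signal scaled by DESeq2), a log2 fold change with its standard error, and the authors' p-value and adjusted p-value. These columns are the authors' own comparison of SMN-KD with SCR, and the changes within each cell type reported here are theirs, read for the members; no value per library was used, so depth per library is unknown here, and no other test within a cell type was fitted. The fold changes may be shrunken: the fold change over its standard error was 0.980 (iMN) and 0.995 (i3N) of the z of the p-value, at the median of genes with means of at least 1000, and 0.771 and 0.879 in members with means under 100.

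Group means were derived from the mean and the fold change for 3 and 3 libraries. The difference between cell types was a Wald test with Benjamini-Hochberg adjustment over 16093 genes. In simulated data, 94% of 200 planted differences were recovered with 1 false call. The simulated noise was drawn from the same standard errors that the test uses. Differences were planted only in genes with a mean count of at least 100 in both cell types. The simulation therefore checks the calculation, and cannot show whether the standard errors fit the real spread. Genes were placed with GENCODE 44 (GRCh38). Where a symbol had several identifiers, the one on the main annotation was used. Exonic overlap with opposite-strand genes was largest for GRM5 (53.8%), DLG5 (23.8%) and GRM3 (19.8%), and reads there cannot be told apart. Named members were those called, with opposite signs, differing by more than 1, highest of their family or with a match, and others were added to complete families after their values were seen. Some genes are in the counts and medians but are not reported here by name. The members and lists were chosen with earlier results of these data known. Python 3.11.15, pandas 2.3.3, numpy 2.4.6, scipy 1.17.1 and matplotlib 3.10.9 were used.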

Additional observations from a re-analysis of the deposited data

Results flagged for a closer look

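For 22 members the effect of SMN-KD differed between the cell types by a test of the difference itself (two-sided Wald test of the log2 fold changes, i3N minus iMN, adjusted over 16093 genes). The i3N change was the lower for GRIK4 (-2.15), CACNG5 (-2.04), GRIN3B (-2.01), NETO1 (-1.67), GRIK3 (-1.37), GRIN2A (-1.02), DLG4 (-0.87), GRID1 (-0.75), GRM4 (-0.74), GRIA2 (-0.64), SHANK2 (-0.63), CACNG8 (-0.61), GRIN1 (-0.60), DLG3 (-0.57), DLGAP3 (-0.30) and CNIH2 (-0.25). It was the higher for DLG2 (1.25), CACNG2 (1.01), NETO2 (0.79), GRIN3A (0.78), HOMER2 (0.47) and HOMER3 (0.42). With all standard errors doubled, 10 of the 22 differences passed an adjusted p of 0.01. These were GRIK4, NETO1, GRIK3, DLG4, GRID1, GRIA2, SHANK2, DLG2, CACNG2 and NETO2. The large differences of CACNG5, GRIN3B and GRIN2A were among those that did not. In these differences the type of neuron cannot be told apart from its line or protocol, and mesenchymal and proliferation markers were called down in i3Ns beside them.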

How the results depend on the processing

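No paired analysis was possible because the tables used here hold 1 comparison per cell type and no value per library. For the same reason no replicate could be left out, and no other count test or normalization was run. Without a fold change threshold, the member calls became 23 down and 6 up in iMNs and 27 down and 7 up in i3Ns; above 0.5 on the log2 scale, 9 were down in iMNs, and 19 down and 4 up in i3Ns. Among the other pathway genes, no threshold gave 9 down and 12 up in iMNs and 11 down and 11 up in i3Ns, and a threshold of 0.5 gave 4 and 5 in iMNs and 8 and 3 in i3Ns. These counts move because fewer or more genes pass by construction. Among members without a match to either guide, an alternative chosen after seeing the data, 5 were called down in i3Ns, and among such other pathway genes 1 was. With standard errors doubled, 10 differences between cell types passed, and 5 of them exceeded 1. An adjusted p of 0.05, centring on the median of all genes and a mean count of at least 100 kept all member call counts within 1.5 times. No named fold change reversed, but these settings could hardly show a reversal. They kept the fold changes or, by centring, shifted them by 0.006 in iMNs and 0.013 in i3Ns. With doubled standard errors, 22 of 70 named fold changes no longer passed the adjusted p of 0.01. The 70 include fold changes that did not pass it as reported and so could not lose it. These p-values were recomputed from the fold change over the doubled standard error, not from the DESeq2 p-value. In members with means under 100, the fold change over its standard error was already 0.771 (iMN) and 0.879 (i3N) of the z. A loss among such members therefore need not come from the doubling alone. DLGAP2 in iMNs was 0.82 and SHANK3 in i3Ns 0.39 when summed over identifiers, also chosen after seeing the data.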
